A study of Mus musculus with 8 samples.

Results

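Mucins and secreted proteins of the airway lining were followed in whole tissue of the vomeronasal organ, with which mice sense pheromones. The set held 10 genes, picked by name and matched to the count tables through GENCODE M21 symbols: the gel-forming mucins Muc5b, Muc5ac and Muc2, the membrane mucins Muc1, Muc4 and Muc16, the secretoglobins Scgb1a1 and Scgb1c1, the lectin Reg3g and the immunoglobulin receptor Pigr. All 10 were among the 48831 genes counted, and 9 passed the filter on low counts, as did 20601 genes in all. Scgb1a1 did not, with a count of 0 in all 8 libraries.

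Polyadenylated RNA of whole tissue had been sequenced, with 2 libraries in each of 4 groups. All mice were C57BL/6J without a stated genetic change and 8 weeks old, and the groups differ in sex and preparation. A pool held non-flushed tissue of 2 mice, and a flushed library held tissue of 1 mouse. The protocol text common to all samples speaks of flushing with heparin, against the descriptions of the pools, so the descriptions were followed. The file headers also place pools and flushed libraries in run folders of different date and in different sequencing lanes. Preparation therefore stands for flushing, pooling, lane and run together, which cannot be told apart here.

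Libraries held 18763557 to 24965088 counts, and the 10 genes took 0.139 to 0.351% of them. Xist and 4 Y-linked genes all differed by sex in the direction of the labels (5 of 5 past the test). Omp, a marker of mature sensory neurons in vomeronasal and main olfactory tissue alike, was detected in every library. Its mean was 185 RPKM, counts scaled for library size and exon length. Trpc2, the ion channel of vomeronasal sensory neurons, had a count of 0 in all 8 libraries. All of its exon bases (2874) lie in another gene on the same strand, where the counting discards reads. None of the 10 genes shares exon bases with another gene on its strand. On the opposite strand Muc4 shares 627 exon bases with Muc20 and Scgb1c1 shares 85 with C330022C24Rik, and the counting used strand.

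Airway mucus is a gel of large glycosylated proteins that traps particles and is moved along by beating cilia. Gel-forming mucins are secreted by goblet cells and submucosal glands, while membrane mucins stay anchored on the cell surface and form the layer beneath the gel. Secretoglobins are small secreted proteins, of which Scgb1a1 is the classical product of club cells in the lung airway, Reg3g is a C-type lectin that kills Gram-positive bacteria, and Pigr carries polymeric IgA across the epithelium into the secretion.

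Promoter sequences are shown for Muc1 and Muc4, whose levels moved together over libraries, for Reg3g, the most abundant of the genes, and for Pigr, which differed by preparation. Of the 10 genes, 7 had an entry in the RefSeq promoter table (GRCm38.p6). Each line gives the 150 bases before the annotated start, 5′ to 3′ on the strand of the gene. Capitals mark matches to TATAAA (the TATA box) or to CACGTG (an E box).
Reg3g: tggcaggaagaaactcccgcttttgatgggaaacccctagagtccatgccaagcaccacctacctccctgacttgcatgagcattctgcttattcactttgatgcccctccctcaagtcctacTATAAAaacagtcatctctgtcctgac
Muc1: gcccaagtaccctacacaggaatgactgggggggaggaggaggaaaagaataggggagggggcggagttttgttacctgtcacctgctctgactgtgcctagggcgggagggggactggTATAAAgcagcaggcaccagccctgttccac
Muc4: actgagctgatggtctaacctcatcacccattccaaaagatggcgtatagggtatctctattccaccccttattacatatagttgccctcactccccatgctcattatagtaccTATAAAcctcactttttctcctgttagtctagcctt
Pigr: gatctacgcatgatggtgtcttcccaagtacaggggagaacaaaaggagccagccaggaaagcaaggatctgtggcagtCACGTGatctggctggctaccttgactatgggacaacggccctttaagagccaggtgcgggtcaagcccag
These are chr6:78468875-78469024 (minus strand) for Reg3g, chr3:89228906-89229055 for Muc1, chr16:32735736-32735885 for Muc4 and chr1:130826534-130826683 for Pigr (plus strand for these). The RefSeq start lies 2 bases from the GENCODE gene start for Reg3g, 1 base for Muc1 and 0 for Muc4 and Pigr. TATAAA begins 27 bases before the start in Reg3g, 31 in Muc1 and 36 in Muc4, on the strand of the gene, and occurs in no other of the 7 promoters. Over all 32851 promoters of the table, 7.57% hold it in this window on either strand. CACGTG begins 71 bases before the Pigr start and was added to the search after that sequence had been read, and 4.30% of all promoters hold it. CCAAT (24.5% of promoters) and the STAT motif TTCNNNGAA (4.09%), also sought on both strands, were found in 0 of the 7. A match describes the letters only.

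Reg3g was by far the most abundant transcript of the set per exon length, and the membrane mucins and Muc2 were the least abundant of those detected. Its level was 505 ± 150 RPKM (mean ± SD, n = 8), and 62 of the 20601 tested genes stood above it. Pigr followed at 122 ± 29.5, Scgb1c1 at 50.1 ± 28.0 and Muc5b at 27.8 ± 15.6 RPKM. Next came Muc5ac with 9.60 ± 8.91 RPKM, an SD almost as large as its mean. Muc1 had 4.03 ± 1.09, Muc4 2.88 ± 1.12, Muc16 1.05 ± 0.492 and Muc2 0.832 ± 0.125 RPKM. Reg3g lay above Pigr, Pigr above Scgb1c1, Muc5b above Muc5ac, Muc1 above Muc4 and Muc4 above Muc16 in 8 of 8 libraries. Scgb1c1 exceeded Muc5b in 7 libraries, Muc5ac exceeded Muc1 in 6 and Muc16 exceeded Muc2 in 6, so these neighbours overlap.

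**Figure D1:**
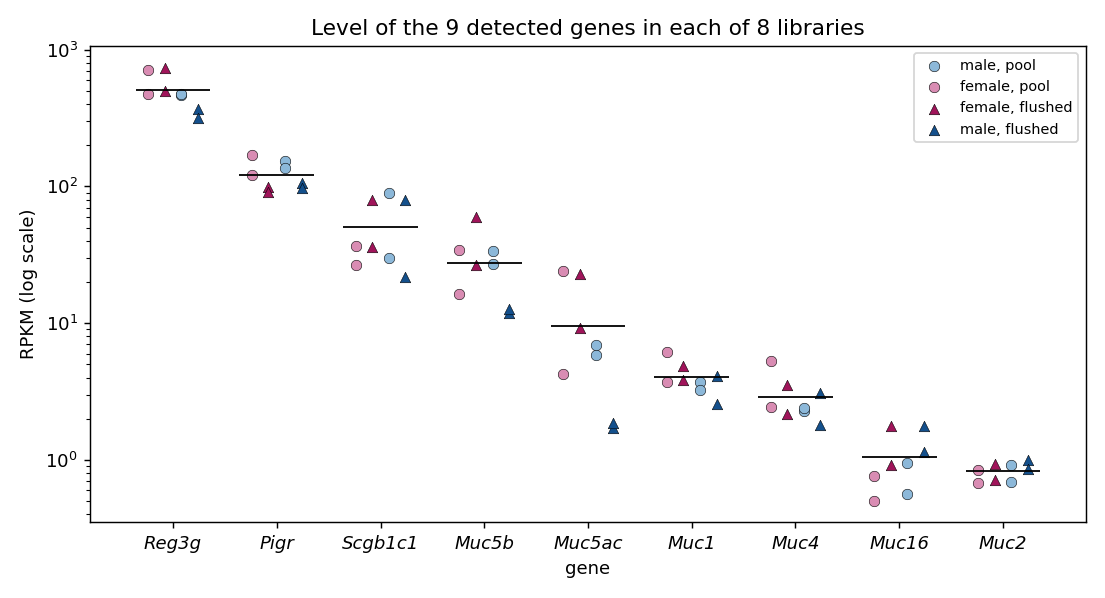
Level of the 9 detected genes (RPKM, log scale) in each library, with circles for pools, triangles for flushed mice and a line at the mean of 8 libraries. Reg3g stands highest with a mean of 505 RPKM, and Muc5ac has the widest range, from 1.70 RPKM in a flushed male to 23.9 RPKM in a female pool.

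Of the 9 genes tested, Muc16 rose and Pigr fell with flushing, and 0 differed by sex. In the edgeR test over all genes at an adjusted p of 0.05, 22.6% of all genes were higher and 22.9% lower in flushed libraries, so 1 of 9 genes in each direction is no more than the share among all genes. By sex 0.116% of all genes passed, and 0.0485% passed for a sex difference that changed with preparation, where 0 of the 9 passed. DESeq2 and limma-voom also called 0 of 9 by sex and 0 of 9 for the interaction, and both called 2 of 9 by preparation. At an unadjusted p under 0.05 edgeR had 3 of 9 by sex (Muc5ac, Reg3g and Muc1), against 7.96% of all genes, and 1 of 9 for the interaction (Muc5b), against 3.25%. Muc5ac, Reg3g and Muc1 moved together over the libraries (Pearson's r of 0.72 to 0.97 between pairs), so they are not 3 separate results. The median log2 difference of the 9 genes was -0.45 for male minus female and -0.20 for flushed minus pool, against -0.0029 and -0.017 over all genes. Muc5b moved with Muc5ac (r of 0.92) and Muc4 with Muc1 (0.94), so the 9 values are not independent. These medians are a description. In bulk tissue a lower level can come from fewer cells of a type or from less RNA per cell, which cannot be told apart.

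**Figure D2:**
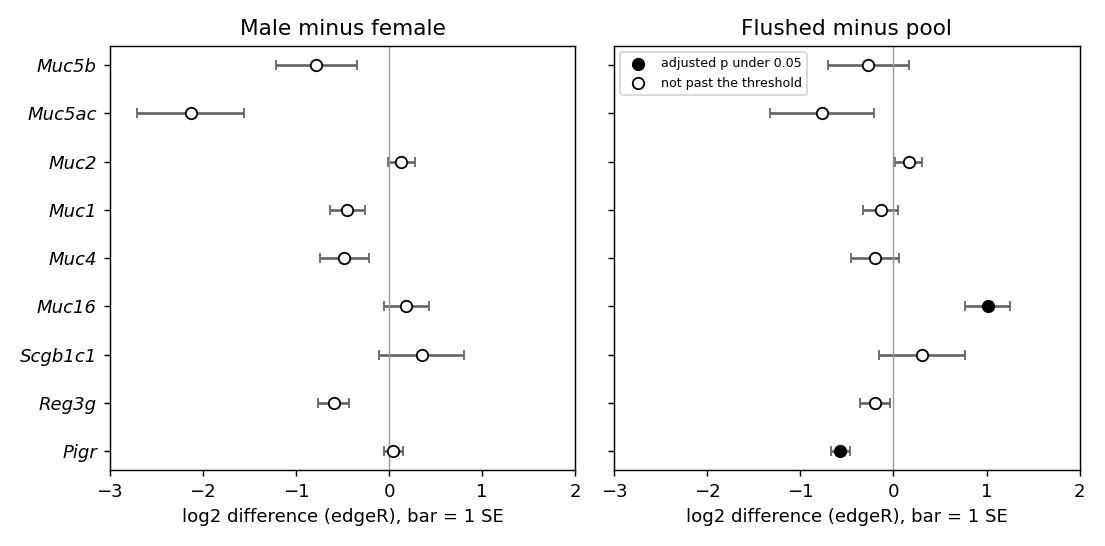
Log2 differences of the 9 tested genes for male minus female (left) and flushed minus pool (right), from edgeR, with bars of 1 SE and filled circles past an adjusted p of 0.05. Only Muc16 (1.01) and Pigr (-0.57) by preparation are filled, and Muc5ac by sex has the largest difference (-2.13) with a long bar.

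Muc5b is the main gel-forming mucin of mouse airways and of nasal glands (chromosome 7, 141839070 to 141873084). Levels in CPM, counts scaled to a common library size, were 501 and 405 in the male pools, 516 and 244 in the female pools, 401 and 889 in the flushed females, and 177 and 190 in the flushed males. The flushed males were the lowest libraries and flushed female 3 the highest, and the groups overlapped by sex and by preparation. The mean was 318 ± 161 CPM over males and 513 ± 274 CPM over females (4 libraries each, log2 change of -0.78 with an SE of 0.44, edgeR adjusted p = 0.71). Pools (417 ± 125 CPM) and flushed libraries (414 ± 333 CPM) had almost the same mean with a larger spread among the flushed ones (log2 change of -0.27 with an SE of 0.43, edgeR adjusted p = 0.64).

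The sex difference of Muc5b had opposite signs in pools and in flushed mice, and neither passed. Among the pools the male minus female difference was 0.25 (log2, SE 0.31, edgeR adjusted p = 1.0), and among the flushed mice it was -1.82 (SE 0.34, edgeR adjusted p = 0.35). The difference between these differences was -2.07 (SE 0.54, unadjusted p = 0.0035), and its edgeR adjusted p over all genes was 1.0. Within males alone Muc5b fell with flushing (log2 change of -1.32 with an SE of 0.14, edgeR adjusted p = 0.0024, 2 libraries against 2), and within females alone the value was 0.79 (SE 0.44, adjusted p = 0.23). In these smaller fits 24.2% of all genes passed within males and 23.4% within females.

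Muc5ac, the gel-forming mucin of surface goblet cells and a gene that airway inflammation is known to induce, varied most of the set (chromosome 7, 141788972 to 141819231). Its level was 63.3 and 74.2 CPM in male pools, 257 and 45.8 CPM in female pools, 99.9 and 247 CPM in flushed females, and 18.3 and 20.1 CPM in flushed males. Female pool 1 and flushed female 3 stood above all other libraries, the flushed males lay lowest, and female pool 2 lay below both male pools. The highest library exceeded the lowest by 14.1-fold. The female pools differed by 5.61-fold from each other and the flushed females by 2.47-fold, while the male pools differed by 1.17-fold and the flushed males by 1.10-fold.

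The mean of Muc5ac was 163 ± 106 CPM over females and 44.0 ± 29.0 CPM over males (4 libraries each). The log2 difference was -2.13 (SE 0.57, unadjusted p = 0.0038), and it did not pass over all genes (edgeR adjusted p = 0.40). Of the fits with 1 library left out, only that without female pool 2 passed. Over those fits the difference ran from -2.67 (without female pool 2) to -1.63 (without flushed female 3). By preparation the difference was -0.76 (SE 0.56, edgeR adjusted p = 0.29), and without female pool 2 it was -1.33 (adjusted p = 0.015). Muc5ac fell with flushing within males alone (log2 change of -1.85 with an SE of 0.12, edgeR adjusted p = 0.00041), and within females alone its value was 0.22 (SE 0.74, adjusted p = 0.85). The test of that contrast between the sexes gave -2.04 (SE 0.91, unadjusted p = 0.051, edgeR adjusted p = 1.0).

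The ratio of Muc5b to Muc5ac differed between libraries. Muc5b exceeded Muc5ac per exon length in every library, by 1.44-fold in female pool 1 and by 6.95- and 6.78-fold in the flushed males. Other libraries lay between 2.58-fold (flushed female 3) and 5.69-fold (male pool 1). The ratio was lowest in the library with the most Muc5ac and highest in the one with the least. Muc5ac is the divisor and ranged more widely than Muc5b (14.1- against 5.03-fold), so this follows in part from the arithmetic.

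Muc2, the gel-forming mucin of the intestine, is a neighbour of Muc5ac and Muc5b on chromosome 7 (141690340 to 141754693) and was near the lower limit of the set. It held 85 to 181 counts a library. Levels were 6.59 and 4.88 CPM in male pools, 4.85 and 6.03 CPM in female pools, 5.09 and 6.68 CPM in flushed females, and 7.18 and 6.16 CPM in flushed males. No group stood apart, and the highest library exceeded the lowest by 1.48-fold, the narrowest range of the 9 genes. The log2 differences were 0.13 by sex (SE 0.14, edgeR adjusted p = 0.88) and 0.16 by preparation (SE 0.14, edgeR adjusted p = 0.38).

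Among the membrane mucins, Muc1 and Muc4 were highest in female pool 1 and Muc16 was higher in flushed tissue. Muc1, a short membrane mucin whose tail takes part in signalling (chromosome 3, 89229057 to 89233381), had 8.76 and 7.64 CPM in male pools, 14.5 and 8.69 CPM in female pools, 9.0 and 11.4 CPM in flushed females, and 5.99 and 9.58 CPM in flushed males. Female pool 1 was highest and flushed male 1 lowest, with the remaining libraries close together. Females had 10.9 ± 2.7 CPM and males 7.99 ± 1.56 CPM, a log2 difference of -0.45 (SE 0.19, unadjusted p = 0.036, edgeR adjusted p = 0.60). By preparation it was -0.14 (SE 0.19, edgeR adjusted p = 0.57).

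Muc4, a long membrane mucin of ciliated airway surfaces that binds ErbB2 (chromosome 16, 32735886 to 32782391), had 26.7 and 28.1 CPM in male pools, 62.4 and 28.9 CPM in female pools, 25.4 and 41.5 CPM in flushed females, and 21.2 and 36.3 CPM in flushed males. Female pool 1 stood clear of the other 3 pools, which lay between 26.7 and 28.9 CPM. The log2 difference by sex was -0.48 (SE 0.26, edgeR adjusted p = 0.70) and by preparation -0.20 (SE 0.26, edgeR adjusted p = 0.56). Neither passed, and by preparation the sign turned without female pool 1 (0.12, adjusted p = 0.68).

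Muc16, the largest membrane mucin and the source of the CA125 antigen (chromosome 9, 18495455 to 18674530, minus strand), had 25.1 and 14.9 CPM in male pools, 20.01 and 13.3 CPM in female pools, 24.3 and 46.4 CPM in flushed females, and 30.0 and 47.0 CPM in flushed males. Flushed libraries were the higher ones, and the lowest of them, flushed female 2, fell just below male pool 1. Flushing went with a rise from 18.3 ± 5.35 to 36.9 ± 11.5 CPM (4 libraries each, or 2.02-fold, a log2 change of 1.01 with an SE of 0.24, edgeR adjusted p = 0.0065). Without any 1 library the adjusted p was at most 0.027. The difference was 1.11 within females alone (SE 0.33, adjusted p = 0.053) and 0.93 within males alone (SE 0.26, adjusted p = 0.036). By sex it was 0.19 (SE 0.24, edgeR adjusted p = 0.90).

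Of 12 other genes of mucins and mucin-like proteins, 5 were tested. With flushing 1 rose and 0 fell, against 22.6% and 22.9% of all genes, and 0 differed by sex. The riser was Cd164, a sialomucin found on many cell types, which went from 103 ± 13.3 CPM in pools to 186 ± 9.76 CPM after flushing (log2 change of 0.85 with an SE of 0.08, edgeR adjusted p = 5.75e-05). Muc13, a membrane mucin of gut and trachea, had 16.9 ± 4.68 and 13.6 ± 2.03 CPM (log2 change of -0.32 with an SE of 0.15, edgeR adjusted p = 0.11). Muc6, the gel-forming mucin of gastric glands, and Mucl1 had a count of 0 in all 8 libraries. The median preparation difference of the 5 tested genes was -0.04.

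Both secretoglobins of the set went separate ways, with Scgb1a1 not detected and Scgb1c1 among the more abundant genes. Scgb1a1 (chromosome 19, 9083636 to 9087958, minus strand) had no count, and 3 counts, the limit that a count of 0 allows, correspond to 0.118 to 0.172 CPM in these libraries, for counting error only. Of 7 other club cell markers, 6 passed the filter, with Cbr2, a carbonyl reductase, at a mean of 528 RPKM and Cyp2f2, a cytochrome P450 of club cells and of olfactory mucosa, at 133 RPKM. The 1 that did not was Scgb3a2, with at most 1 count in any library. With flushing 0 of the 6 rose and 2 fell (Hp and Cbr2), against 22.6% and 22.9% of all genes, and 0 differed by sex. The Cbr2 difference was -0.23 (log2), and its call was lost in 6 of 18 alternative fits.

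Scgb1c1, a secretoglobin first described in olfactory mucosa (chromosome 7, 140845547 to 140846769), had 40.9 and 13.6 CPM in male pools, 12.1 and 16.8 CPM in female pools, 16.4 and 36.3 CPM in flushed females, and 36.4 and 9.90 CPM in flushed males. One library of 3 of the 4 groups was high, at 36.3 to 40.9 CPM, and the other 5 libraries lay between 9.90 and 16.8 CPM. The members of these groups differed by 2.21- to 3.67-fold. No group mean stood apart: the log2 difference was 0.35 by sex (SE 0.46, edgeR adjusted p = 0.90) and 0.31 by preparation (SE 0.46, edgeR adjusted p = 0.61). These errors are wide, so a difference of about 1 log2 unit either way would lie near 2 SE.

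Of 32 other secretoglobin genes, most of them of the androgen-binding protein cluster, 13 were tested. With flushing 3 rose and 0 fell, against 22.6% and 22.9% of all genes, and 0 differed by sex. Scgb2b15 had 34.7 and 9.63 CPM in male pools, 3.39 and 8.17 CPM in female pools, 44.3 and 68.9 CPM in flushed females, and 14.1 and 53.6 CPM in flushed males. The flushed libraries were mostly the higher ones, but flushed male 1 lay below male pool 1. Its rise (log2 change of 1.84 with an SE of 0.65, edgeR adjusted p = 0.041), that of Scgb2b17 (1.83, SE 0.65, adjusted p = 0.042) and that of Scgb2b19 (1.74, SE 0.58, adjusted p = 0.033) each lost the call without any 1 of 6 libraries, all but male pool 1 and flushed male 1 (adjusted p of 0.14 at most). Their counts were fractional in 8, 7 and 6 libraries, which shows reads divided among similar genes, so these are not separate measurements.

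Another pair of that cluster was high in a single library, a feature chosen after the values were seen. Scgb1b27 and Scgb2b27, which encode subunits of salivary androgen-binding protein, had 114 and 154 CPM in flushed male 3. In the other 7 libraries they had at most 7.41 and 6.54 CPM. Scgb1c1 was at its lowest in that same library (9.90 CPM). Scgb3a1, a secretoglobin of upper airways, was highest in female pool 1 (14.8 CPM, against 1.12 to 4.66 CPM elsewhere) and did not pass by sex (log2 difference -1.58, edgeR adjusted p = 0.54).

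**Figure D3:**
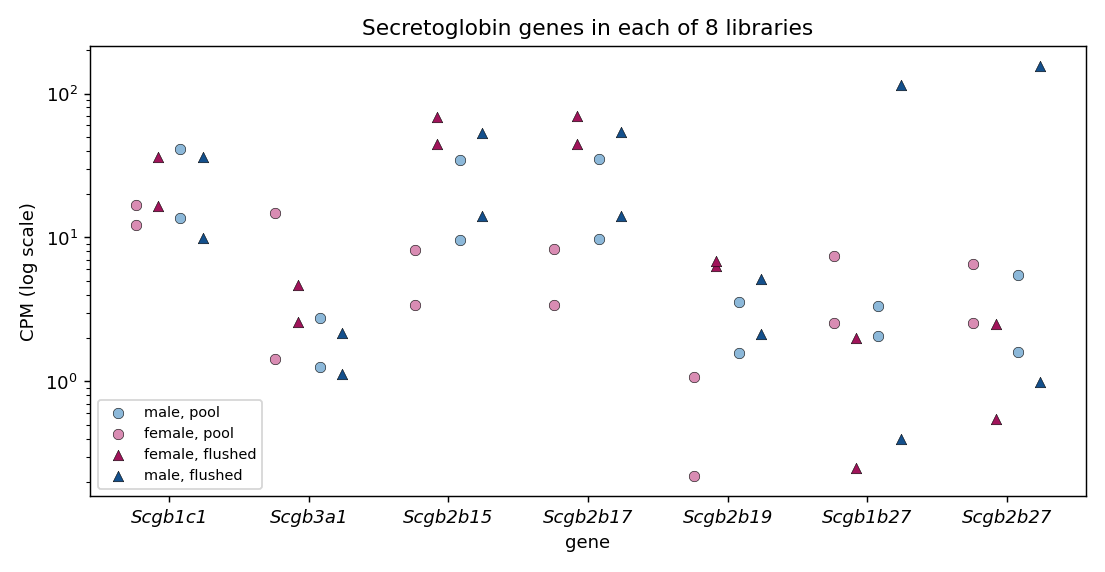
Level (CPM, log scale) of Scgb1c1 and 6 other secretoglobin genes in each library, with circles for pools and triangles for flushed mice. Scgb1c1 splits into 3 high and 5 low libraries across the groups, and Scgb1b27 and Scgb2b27 exceed 100 CPM in 1 flushed male alone.

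Reg3g, a bactericidal lectin (chromosome 6, 78466269 to 78468872, minus strand), was high in every library. Its level was 985 and 996 CPM in male pools, 1512 and 996 CPM in female pools, 1047 and 1564 CPM in flushed females, and 773 and 674 CPM in flushed males. Female pool 1 and flushed female 3 stood out above, and the flushed males below. All 4 females lay above all 4 males, a separation whose share over all genes was not counted. The lowest female (996.1 CPM) and the highest male (995.7 CPM) were practically level. The means were 1280 ± 300 CPM over females and 857 ± 159 CPM over males (4 libraries each, log2 change of -0.60 with an SE of 0.16, unadjusted p = 0.0045), and the edgeR adjusted p over all genes was 0.41.

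By preparation the Reg3g means were 1122 ± 260 CPM over pools and 1015 ± 399 CPM over flushed libraries (log2 change of -0.20 with an SE of 0.16, edgeR adjusted p = 0.35). Without flushed female 3 it fell with flushing (-0.39, adjusted p = 0.037). Within males alone it also fell (-0.47, SE 0.13, edgeR adjusted p = 0.036), and within females alone the value was 0.08 (SE 0.24, adjusted p = 0.83). The test of that contrast between the sexes gave -0.51 (SE 0.30, edgeR adjusted p = 1.0). The 6 other genes of the family were at or near 0, with 0 of them tested and summed levels of at most 0.548 CPM. Reg3g was the 1 family member that passed the filter.

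Pigr, the receptor that transports polymeric IgA and IgM (chromosome 1, 130826684 to 130852249), was lower in flushed tissue. It had 623 and 548 CPM in male pools, 689 and 485 CPM in female pools, 397 and 368 CPM in flushed females, and 425 and 390 CPM in flushed males. Over all genes 22.9% passed as lower in flushed libraries, and how many separated fully was not counted. For Pigr all 4 pools lay above all 4 flushed libraries, and the flushed libraries were close together. Its counts were fractional in all 8 libraries, so some of its reads also aligned elsewhere, while those of Muc5b and Muc2 were fractional in 2 libraries each and those of the other genes of the set in 0. Flushing went with a fall from 586 ± 88.8 to 395 ± 23.6 CPM (4 libraries each, or 1.48-fold, a log2 change of -0.57 with an SE of 0.10, edgeR adjusted p = 0.0015). The fall was -0.60 within females alone (adjusted p = 0.039) and -0.54 within males alone (adjusted p = 0.022), and by sex the difference was 0.04 (SE 0.10, edgeR adjusted p = 0.96).

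Genes of IgA, the cargo of Pigr, were higher in flushed tissue. Igha, the IgA heavy chain, had 7.08 and 6.26 CPM in male pools, 95.3 and 3.53 CPM in female pools, 130 and 111 CPM in flushed females, and 123 and 135 CPM in flushed males. Female pool 1 resembled the flushed mice, and the other 3 pools were far below. Igha rose with flushing (log2 change of 2.57 with an SE of 0.82, edgeR adjusted p = 0.026), as did Jchain, the chain that joins IgA monomers (10.3 ± 14.3 to 85.3 ± 24.9 CPM, 3.13, SE 0.69, adjusted p = 0.0044). The Igha call was lost without male pool 1, male pool 2 or flushed male 3 (adjusted p of 0.093 at most), and without female pool 1 the differences were 4.53 for Igha and 4.86 for Jchain. Both genes were chosen for their values.

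Of 22 genes of immunoglobulins and plasma cells, 19 were tested, and 8 rose and 3 fell with flushing while 0 differed by sex (median preparation difference 0.57). Over all genes 22.6% rose and 22.9% fell, the shares for the marker lists below as well. Ighm, the IgM heavy chain, was the 1 gene of the list whose sex difference changed with preparation, at 49.7 and 46.4 CPM in flushed males and 11.9 to 20.8 CPM elsewhere (edgeR adjusted p = 0.014), a call lost without either male pool, either flushed male or flushed female 3 (adjusted p of 0.092 at most). Igkc, the kappa light chain, rose from 13.3 ± 18.8 to 80.4 ± 15.4 CPM (2.75, SE 0.69, adjusted p = 0.0084), or by 4.45 without female pool 1. Ighg2c, an IgG heavy chain, went from 0.149 ± 0.118 to 83.2 ± 46.5 CPM and had the smallest p of the list (adjusted p = 1.98e-05). The fallers were Sdc1 (log2 difference -0.42, adjusted p = 0.0012), Xbp1 (-0.29, adjusted p = 0.0045) and Derl3 (-0.40, adjusted p = 0.021), genes of the plasma cell surface and of secretory cells at large, and the Derl3 call was lost without female pool 2, flushed female 3 or flushed male 1 (adjusted p of 0.059 at most). Among 8 erythroid markers 8 fell with flushing, with sums of 1674 to 2088 CPM in pools and 127 to 638 CPM in flushed libraries. Among 7 neutrophil markers 5 fell (169 to 285 and 34.9 to 155 CPM), and among 4 tested plasma cell markers 2 rose and 2 fell (123 to 147 and 148 to 206 CPM). The call of the neutrophil marker S100a8 was lost in 6 of 18 alternative fits, and that of Ngp in 2. Of 11 markers of serous gland cells 5 fell and 1 rose, with summed levels of 139822 to 231247 CPM in pools and 121940 to 180618 CPM in flushed libraries. By sex 2 of these 11 serous markers, Lcn4 and Obp2a, were higher in males (log2 differences 0.53 and 0.57, adjusted p = 0.028 and 0.030), against 0.116% of all genes by sex. Both calls were lost without male pool 1, either female pool, flushed female 3 or flushed male 3, and that of Lcn4 also without male pool 2 (adjusted p of 0.12 at most). Both calls were also lost with sex as the only term, and that of Obp2a with limma-voom. The serous sums were 121940 to 153068 CPM in females and 164256 to 231247 CPM in males, without overlap. The share of all genes without overlap by sex was not counted. Obp2a, Obp2b and Lcn3 were the most abundant serous markers (63900, 60395 and 23772 RPKM). The sums hold Obp2a, so they are no separate result on the 11 markers. Of the 8 erythroid markers 5 (Hba-a1, Hba-a2, Hbb-bs, Hbb-bt and Alas2) had a sex difference that changed with preparation, against 0.0485% of all genes, and the Alas2 call was lost without flushed female 3 (adjusted p = 0.060). No marker of these 4 lists was at 0 in all libraries, and the part of these cell types in the Pigr and Muc16 values, or in the sex values of Reg3g and the mucins, was not tested.

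**Figure D4:**
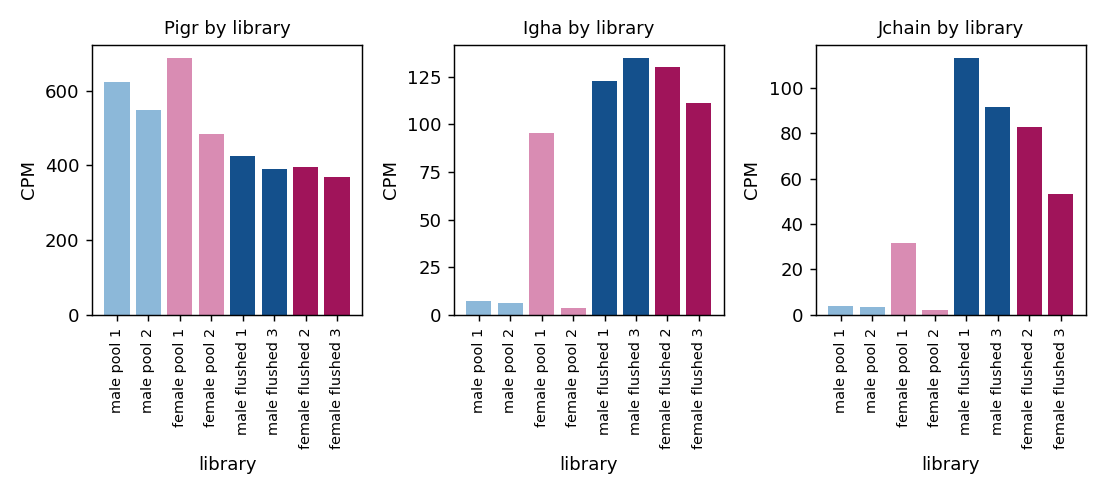
CPM of Pigr, Igha and Jchain in each library as bars from 0, with light bars for pools and dark bars for flushed mice. Pigr is higher in all 4 pools, while Igha and Jchain are high in the flushed mice and, among pools, in female pool 1 (95.3 and 31.7 CPM).

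Spread between libraries of the same group was wide for most of the set. It was measured on the log2(CPM + 0.5) scale as the SD that remains within the 4 groups, which had a median of 0.131 and a 90th percentile of 0.286 over the 17870 genes that averaged at least 20 counts. Muc5ac had 0.993 and Scgb1c1 0.949, with 85 and 92 genes above them. Muc5b (0.568), Muc4 (0.533), Muc16 (0.515), Muc1 (0.362) and Reg3g (0.303) also lay above the 90th percentile. Muc2 (0.228) and Pigr (0.200) did not.

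Muc5ac, Reg3g and Muc5b deviated together over the libraries, as did Muc1 and Muc4, and these groups were more loosely tied to each other. Over 8 libraries, which the genes share along with their depth, Pearson's r of log2(CPM + 0.5) was 0.97 for Muc5ac and Reg3g, 0.94 for Muc1 and Muc4, 0.92 for Muc5b and Muc5ac and 0.88 for Muc5b and Reg3g. Between the groups r was 0.77 for Muc5ac and Muc1, 0.72 for Reg3g and Muc1, 0.66 for Muc5ac and Muc4, 0.64 for Reg3g and Muc4, 0.61 for Muc5b and Muc1 and 0.47 for Muc5b and Muc4. Muc16 had r of -0.09 with Muc5ac and -0.11 with Reg3g, and Pigr 0.29 and 0.28. Summed markers of ciliated, airway basal, club and tuft cells were also highest in female pool 1 and flushed female 3. For 12 ciliated cell markers the sum was 960 CPM in female pool 1 and 1182 CPM in flushed female 3, and 582 to 807 CPM in the other 6 libraries. Airway basal markers had 262 and 247 CPM there and 108 to 193 CPM elsewhere. Club (1214 and 1216, at most 1198 CPM elsewhere) and tuft markers (24.1 and 24.7, at most 23.8 CPM elsewhere) were barely higher. Serous gland sums were lowest there (139822 and 121940 CPM). Squamous sums were highest in male pool 1 (217 CPM) and those of vomeronasal sensory neurons in female pool 2 (1285 CPM). Erythroid sums were highest in male pool 2 (2088 CPM) and plasma cell sums in flushed male 1 (206 CPM). Neutrophil sums were highest in female pool 1 (285 CPM) and lowest in flushed female 3 (34.9 CPM). All 12 ciliated markers were tested and none was at 0. By sex 0 of them differed, and 1, Foxj1, fell with flushing, against 22.9% of all genes. That call was lost without any 1 library other than female pool 2 and flushed female 3 (adjusted p of 0.083 at most). The ciliated sums were 637 to 960 CPM in pools and 582 to 1182 CPM in flushed libraries. The part of these cell types in the mucin and Reg3g values was not tested.

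**Figure D5:**
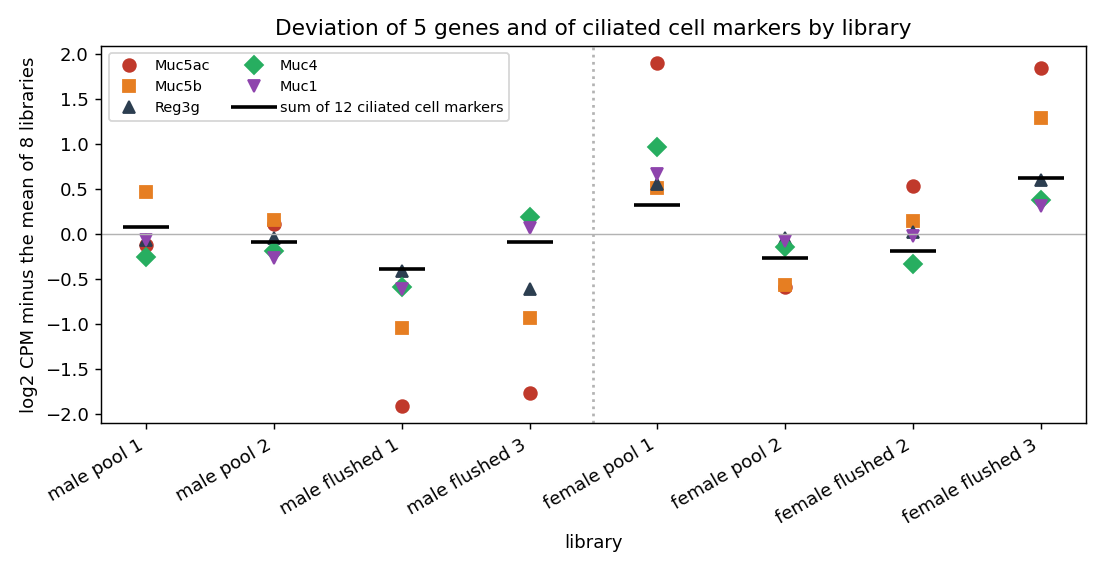
Log2 CPM of Muc5ac, Muc5b, Reg3g, Muc4 and Muc1, and of the sum of 12 ciliated cell markers (black bars), each minus its mean over 8 libraries, with males left and females right of the dotted line. All 6 are above their mean in female pool 1 and flushed female 3 and below it in flushed male 1.

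The genes most like each member over 8 libraries, by the same r among 17611 genes with a mean of 1 CPM or more, are given as a description. For Muc5ac they were Itln1 (0.99), an intelectin lectin with 0.674 to 6.89 CPM, Gm21149 (0.98) and Reg3g (0.97). Muc5b was closest to Gp2 (0.97), a glycoprotein that binds bacteria, with 29.7 CPM in flushed male 1 and 249 CPM in flushed female 3, then Tmc5 and Gm12503. Reg3g was closest to St6galnac1 (0.98), a sialyltransferase of mucin-type glycans, then Gm19935 and Ccdc153 (0.98), a ciliated cell marker. Muc4 was closest to 1700030J22Rik (0.95), Tcte1 and Muc1, and Muc1 to Pde4b (0.97), Gpr183 and Plet1. Muc16 was closest to Gm43323 (0.99), Stam2 and Gm45074, and Pigr to Espl1 (0.98), Nrros and Tagln2. Scgb1c1 was closest to Neil2 (0.95), E430024P14Rik and Cyp1a2, and Muc2 to 1110046J04Rik (0.99), Slc26a7 and 1700123M08Rik.

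Of 29 tested genes that build and process mucins, 3 rose and 7 fell with flushing, against 22.6% and 22.9% of all genes. The median preparation difference was -0.20, and 0 differed by sex. C1galt1, the core 1 synthase of mucin-type sugars, rose from 52.1 ± 2.30 to 91.4 ± 5.07 CPM (log2 change of 0.81 with an SE of 0.06, edgeR adjusted p = 1.82e-05), and Galnt1 and the chaperone C1galt1c1 also rose. Gcnt3, the branching enzyme of mucins, fell from 68.2 ± 8.88 to 39.2 ± 3.99 CPM (-0.79, SE 0.09, adjusted p = 0.0001). Galnt6, which starts mucin-type sugar chains, fell by 0.53 on the log2 scale (SE 0.07, adjusted p = 0.00023). Fcgbp, a mucus protein that binds to the gel, fell by 0.26 (SE 0.07, adjusted p = 0.014; without male pool 1 the adjusted p was 0.059).

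Tff2, a trefoil peptide secreted with mucins, was the 1 gene of that list whose sex difference changed with preparation (edgeR adjusted p = 0.049 for the interaction), and it is named for that value. The call was lost without any 1 library other than flushed female 2 (adjusted p of 0.40 at most). It had 168 and 126 CPM in male pools, 110 and 72.0 CPM in female pools, 152 and 282 CPM in flushed females, and 33.97 and 43.9 CPM in flushed males. Flushed males were lowest and flushed female 3 highest, the same libraries at both ends as for Muc5b. Tff3, its relative in the intestine, had a count of 0 throughout.

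Of 24 tested antimicrobial and defence genes, 2 rose and 9 fell with flushing, against 22.6% and 22.9% of all genes. The median preparation difference was -0.46, and 0 differed by sex. The most abundant were Dmbt1, a scavenger receptor of mucosal secretions (6859 RPKM, log2 difference -0.07, adjusted p = 0.53), Wfdc18 (3728 RPKM) and lactoferrin, Ltf (2464 RPKM), and Wfdc18 and Ltf fell by 0.39 and 0.40 on the log2 scale (adjusted p = 0.0098 and 0.014). Bpifb1, a secreted protein of airway goblet cells and glands, fell from 344 ± 111 to 119 ± 42.1 CPM (log2 change of -1.52 with an SE of 0.31, edgeR adjusted p = 0.0030). Sftpd, surfactant protein D, fell by 0.42 on the log2 scale (SE 0.07, adjusted p = 0.0012), and Defb1, an epithelial defensin, rose by 0.80 (SE 0.14, adjusted p = 0.0013). Chil4, a chitinase-like protein of inflamed airways, had a sex difference that changed with preparation (edgeR adjusted p = 0.044) and was named for it: flushed females had 26.8 and 25.3 CPM, flushed males 0.515 and 0.270 CPM, and pools 0.919 to 3.47 CPM. That call was lost without any 1 library other than the female pools (adjusted p of 0.62 at most).

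Among 29 tested regulators of Pigr, Reg3g and mucin genes, 6 rose and 10 fell with flushing, against 22.6% and 22.9% of all genes. The median preparation difference was -0.13, and 0 differed by sex. Il13ra1, a receptor chain for the mucus-inducing cytokine IL-13, rose from 29.8 ± 2.50 to 55.4 ± 5.42 CPM (log2 change of 0.89 with an SE of 0.08, edgeR adjusted p = 4.04e-05). Tlr4, the receptor for bacterial lipopolysaccharide, rose by 0.80 (SE 0.08, adjusted p = 4.67e-05) and Osmr, a chain of the oncostatin M receptor, by 0.55 (SE 0.08, adjusted p = 0.00038). Nfkbia, the inhibitor of NF-kappaB and the most abundant of these genes at 37.9 RPKM, fell by 0.39 on the log2 scale (SE 0.07, adjusted p = 0.0016). Nkx2-1, a lung transcription factor that drives Scgb1a1, had a count of 0 in every library.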

How the data were processed

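RNA of 8 libraries was compared by sex and preparation (4 against 4, groups of 2 for their interaction). Per the submitters' processing notes, the authors used STAR 2.7.1a, featureCounts 1.6.5 and the build GRCm38 (mm10). They deposited expected counts, in which multi-mapping reads count as fractions, and reads over several genes were dropped, with counting by strand and exon at any mapping quality, per the file headers. Gene models came from Ensembl for GRCm38 with the authors' own edits, per the file headers.

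Here, M21 symbols matched 48422 of 48831 genes. Counts were rounded and fitted with edgeR 4.0.16 (R 4.3.3): filterByExpr on the 4 groups, TMM, sex and preparation as additive terms, quasi-likelihood F test, Benjamini-Hochberg adjustment over 20601 genes, threshold 0.05. Every adjusted p in the text without another tool's name is edgeR's. CPM is the unrounded count per TMM-scaled size of tested genes, and RPKM also divides by the exon length in the files. p-values measure spread between libraries from separate mice or pools, per the labels. The fit was also run on simulated counts that gave every gene the same spread. The genes here differ in spread, so that run does not cover those of wide spread. Alternatives were DESeq2 1.42.0, limma 3.58.1 (voom), other scalings, filters, rounding and designs, and leaving out each library. Members, lists and alternatives were chosen with earlier results of these data known. The rule for naming genes took all members, per list up to 3 genes with the smallest p past the threshold and the 3 of highest RPKM, and the 3 most correlated genes per member. Of the list genes it took, the text gives only some, picked with their values known, and other genes named were chosen after their values were seen.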

Additional observations from a re-analysis of the deposited data

Results flagged for a closer look

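A library far from the other 3 of its kind was looked for in 36 sets of 4 libraries (9 genes within each preparation and each sex), by Dixon's ratio, which is the gap to the nearest library divided by the range on the log2(CPM + 0.5) scale. It exceeded the 95% critical value in 2 of them, and chance alone flags about 1 set in 20. Both concerned female pool 1 among the 4 pools: Reg3g (ratio 0.973, at 1512 CPM against 985 to 996 CPM) and Muc4 (ratio 0.908, at 62.4 CPM against 26.7 to 28.9 CPM).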

How the results depend on the processing

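Muc16 and Pigr kept their calls by preparation in all 18 alternatives over both sexes (adjusted p of at most 0.027 and 0.0060); Muc16 missed the threshold within females. Of the alternatives for single genes, 452 kept direction and side of the threshold, 20 passed it newly, 1 lost it and 31 turned sign. Total counts without a scaling factor shifted the median of all genes to -0.12 by sex and 0.10 by preparation and gave 2862 genes lower in flushed libraries (4721 with TMM). Genes higher in males numbered 17 (90 with DESeq2, 327 without a filter, 26 with the interaction in the model, 6 with sex alone, 5 to 18 with 1 library left out). Genes lower in males numbered 7 (34, 457 and 1 for the same settings but the interaction one, 12 with total counts, 3 to 14 with 1 library left out). Interaction genes numbered 10 (28 with DESeq2, 263 without a filter, 4 to 18 with 1 library left out). Without a filter the prior degrees of freedom of edgeR were infinite (5.26 in the chosen fit), so every gene took the common spread. Most of the single-gene results that passed newly came from that fit. Among them were Muc5b, Muc5ac, Muc1, Muc4, Scgb1c1 and Reg3g by sex. In pools alone 2 places of the order by level changed.

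Signs that turned belonged to differences that did not pass. By sex they were Muc5b in pools (0.25), Scgb1c1 in flushed mice (-0.20; -0.16 to 0.75 with 1 library left out) and Pigr (-0.075 with total counts, -0.0038 in pools, -0.035 to 0.16 with 1 left out). By preparation they were, in females, Muc5b (0.79; -0.74 to 0.040 with 1 left out), Muc5ac (0.22) and Reg3g (0.081), in males Muc4 (0.060; -0.42 to 0.12) and Scgb1c1 (-0.25; -0.084 to 0.85), and with 1 left out Muc1 (-0.29 to 0.034). For the interaction the left-out ranges were -0.11 to 0.32 for Muc2, -0.31 to 0.42 for Muc1, -0.14 to 0.95 for Muc4, -0.54 to 0.41 for Muc16 and -0.18 to 0.31 for Pigr. The cause was not tested. No paired analysis was possible because the labels give the pools no replicate number (theirs follow listed order) and the flushed groups share only number 3. At the lowest counts, such as Muc2 (85 counts) and Muc1 (133 counts), depth limits precision.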

Other observations

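Muc19, a gel-forming mucin of salivary glands that the annotation does not list as protein-coding, was looked at after the other values were seen. It had 6.54 and 6.55 CPM in male pools, 4.34 and 1.43 CPM in female pools, 7.40 and 15.1 CPM in flushed females, and 1.19 and 0.675 CPM in flushed males. Flushed males were lowest and flushed female 3 highest, as for Muc5b and Tff2. Clca1, a protein of goblet cell mucus, had 1 count in each flushed male and 66 counts in flushed female 3, with 7 to 23 counts elsewhere.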
